A study of Mus musculus with 6 samples.

Results

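The genes described here are the core machinery that builds autophagosomes and fuses them with lysosomes. They are 34 genes of 32285 features, chosen by symbol (each matched exactly 1 feature in all 6 libraries), and they fall into 6 roles. Pancreatic tumours of 6 KPC mice were dissociated and profiled with 10x Genomics droplet single-cell RNA sequencing, 1 library per mouse. KPC mice carry KrasLSL.G12D/+, p53LSL.R172H/+ and Pdx1-Cretg/+ and develop pancreatic ductal adenocarcinoma. All 6 mice carried these alleles, and Cre driven by the Pdx1 promoter acts in the pancreatic epithelial lineage, so stromal and immune cells of these tumours come from outside it. Vehicle mice (n = 3) received corn oil and water, and treated mice (n = 3) received trametinib at 1 mg/kg and hydroxychloroquine at 40 mg/kg, all by mouth. Mice entered the study at random when the tumour measured 4 to 7 mm by ultrasound, and tumours were taken 24 h after treatment. The labels give no age, sex or number of doses. The 2 drugs were given together, so their separate effects cannot be told apart.

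Autophagy encloses cytoplasm in a double membrane, the autophagosome, and delivers it to the lysosome for breakdown. The ULK kinase complex starts the process, a lipid kinase complex built on Pik3c3 (VPS34) and Becn1 marks the membrane with a phosphoinositide, and 2 ubiquitin-like conjugation reactions attach LC3 proteins to it. Pancreatic cancer cells are known for high basal autophagy. Trametinib inhibits MEK, the kinase above ERK, and hydroxychloroquine impairs lysosomes and so blocks the last step of autophagy. Most regulation of this machinery is by phosphorylation and membrane recruitment, which RNA counts do not measure.

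Libraries held 22996012 to 126645602 UMIs (unique molecular identifiers, 1 per captured RNA molecule), and 37002 cells were kept. Median depth was 8384 to 11182 UMIs per kept cell in treated mice and 2996 to 4699 in vehicle mice. Between 7.76% and 19.8% of the barcodes in a treated library exceeded 20% mitochondrial UMIs, against 3.86% to 8.19% in a vehicle library. Counts were summed per mouse within 6 cell classes named from markers: tumour and ductal epithelial cells (11150), macrophages and monocytes (9778), neutrophils (5517), fibroblasts (3119), endothelial cells (1212) and T and NK lymphocytes (1150). Another 2499 cells (6.75%) stayed unnamed, of which 736 in treated 1 and 1037 in treated 2 were Krt8 and Krt18 cells led by Cdkn2a, against 1 to 6 in each other mouse. Vehicle 1 stood apart in its barcodes. Of the distinct 7-base sequences that open its barcodes, 26.9% also occurred in vehicle 2, against 99.8% to 100% between the other libraries. Vehicle 1 was also the smallest library, with 46 endothelial cells and 42 T and NK lymphocytes. Treated 1 and treated 2 differed by more than sampling noise (chi-square per gene of 2.39 to 25.8 across classes), though by less than treated 1 and treated 3 (3.75 to 140). They were the most alike pair of libraries in all 6 classes. In tumour cells the SD of their log2 ratios over genes was 0.252, against 0.621 to 1.16 in the other pairs. In endothelial cells it was 0.216, against 0.400 to 1.18. The reason was not tested. No pair of libraries shared more than 24 barcodes.

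No gene of the autophagosome machinery passed an adjusted p of 0.05 in any of the 6 classes, and their levels lay mostly within 2-fold between groups, with 2 of 173 fold changes past 1 on the log2 scale. The test was edgeR's quasi-likelihood test with Benjamini-Hochberg adjustment over all genes of a class, mice as replicates. In tumour cells 0 of 34 were called (background 0% of 14630 genes), in macrophages 0 of 34 (0% of 11651), in fibroblasts 0 of 34 (0% of 12468) and in neutrophils 0 of 29 tested (0% of 7819). In endothelial cells 0 of 32 tested were called against 1.31% of 10114 genes (0.208% higher and 1.1% lower), and in T and NK lymphocytes 0 of 10 against 0.119% of 5029 genes (0.0199% higher and 0.0994% lower). DESeq2 also called 0 of these genes in each class, while it called 2.49% of all genes in tumour cells, 2.28% in macrophages, 2.47% in fibroblasts, 1.92% in endothelial cells, 0.0256% in neutrophils and 0.239% in T and NK lymphocytes. At an unadjusted p under 0.05, edgeR gave 1 gene in tumour cells, 2 in macrophages, 10 in fibroblasts, 5 in endothelial cells, 0 in neutrophils and 0 in T and NK lymphocytes. The share of all genes at that level was 12.1%, 10.3%, 15.8%, 20.2%, 4.83% and 3.98%. The fit had little power at the size of these differences. Of genes simulated with a 2-fold change, 0% were recovered in tumour cells (14630 genes), 0% in neutrophils (7819), 6% in macrophages (11651), 7% in fibroblasts (12468), 17% in T and NK lymphocytes (5029) and 44% in endothelial cells (10114). At 4-fold the shares in the same classes and order were 0%, 0%, 78%, 64%, 89% and 87%.

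**Figure D1:**
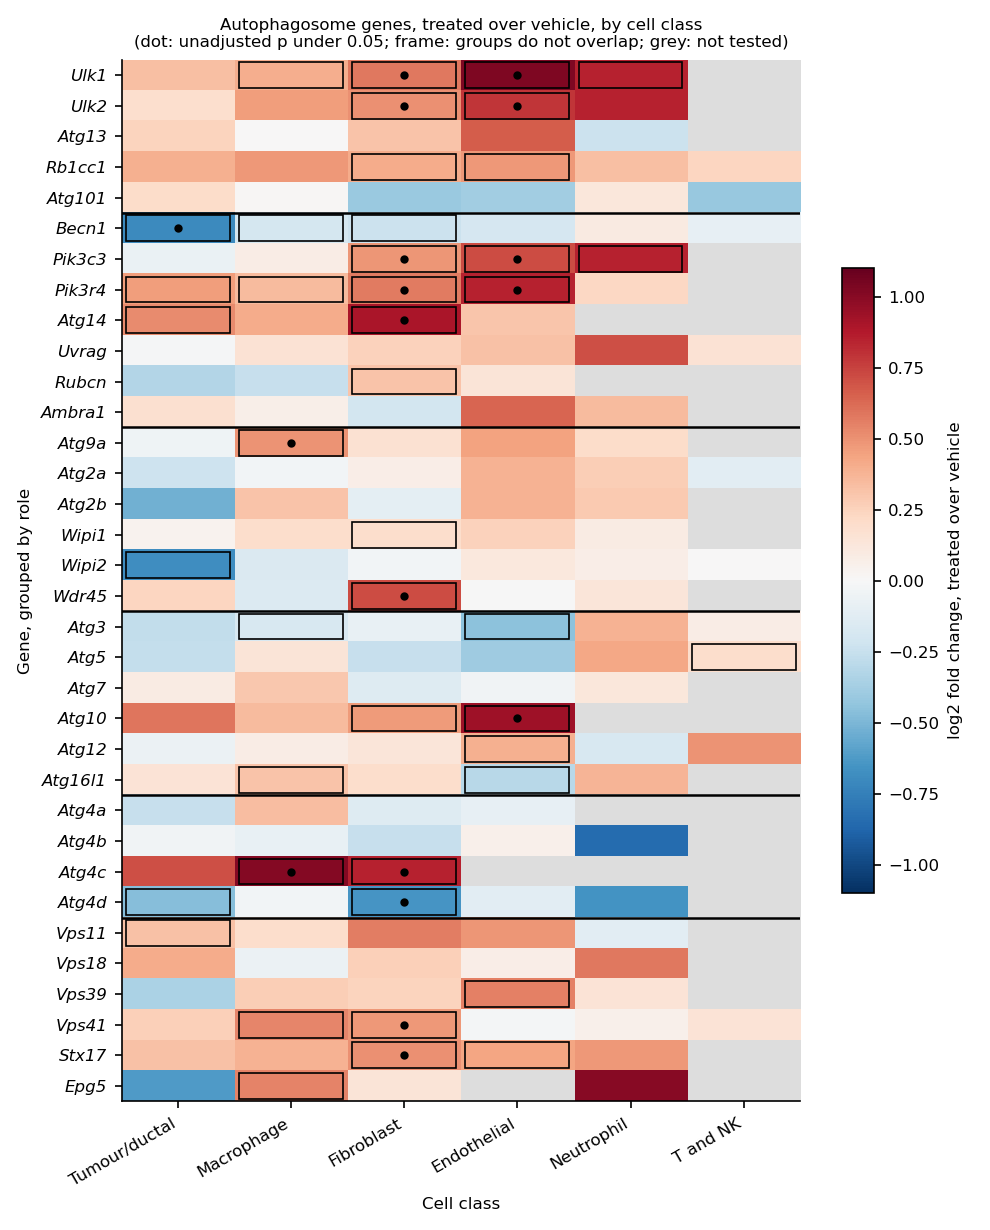
Log2 fold change, treated over vehicle, of each gene (rows, grouped by role) in each cell class (columns), from edgeR, 3 vehicle and 3 treated mice. Dots mark an unadjusted p under 0.05, frames mark genes whose treated and vehicle mice did not overlap, and grey cells were not tested; fibroblasts and endothelial cells hold the most frames, 15 and 11.

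Outside tumour cells, more of these genes lay above 0 than below. In fibroblasts 23 of 34 fold changes were above 0 (50.2% of all genes) and the median was 0.22 on the log2 scale, beside 0.00 for all genes. In endothelial cells 22 of 32 were above 0 (51.8% of all genes), with a median of 0.31 beside 0.02, and in macrophages 25 of 34 (50.6%), with a median of 0.19 beside 0.01. Neutrophils had 24 of 29 above 0 (45.8% of all genes, median 0.23 beside -0.06), and T and NK lymphocytes 7 of 10 (51.1%, 0.12 beside 0.01). Tumour cells were nearly balanced, with 18 above and 16 below 0 (45.7% of all genes above) and a median of 0.07 beside -0.07. In fibroblasts, all 3 treated mice lay above all 3 vehicle mice for 13 genes (12.4% of all genes) and below for 2 (11.1%), together 44.1% against 23.5% of all genes. Endothelial cells had 9 genes above (background 14%) and 2 below (13%), together 34.4% against 27.1%. Macrophages had 7 above (8.68%) and 2 below (8.76%), together 26.5% against 17.4%. Tumour cells had 3 above (10.6%) and 3 below (9.85%), together 17.6% against 20.5%, so their share was near the background. Neutrophils had 2 above (5.12%) and 0 below (5.44%), together 6.90% against 10.6%, and T and NK lymphocytes 1 above (6.36%) and 0 below (4.33%), together 10% against 10.7%. Without vehicle 1 the medians were 0.21 in fibroblasts, 0.25 in endothelial cells, 0.16 in macrophages, 0.04 in tumour cells, 0.10 in neutrophils and 0.03 in T and NK lymphocytes. The shares not overlapping were then nearer those of all genes in fibroblasts (52.9% against 42.7%). They were 48.5% against 42.2% in endothelial cells, 41.2% against 31.2% in macrophages and 35.3% against 36.2% in tumour cells. Neutrophils had 13.6% against 21.1%, and T and NK lymphocytes 7.69% against 21.8%. Without treated 3 the tumour median turned to -0.06. Scaling to class totals alone, without correcting for composition, moved the median of all genes in tumour cells from -0.07 to 0.22 and that of these genes from 0.07 to 0.36, which left the distance between them at 0.14.

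**Figure D2:**
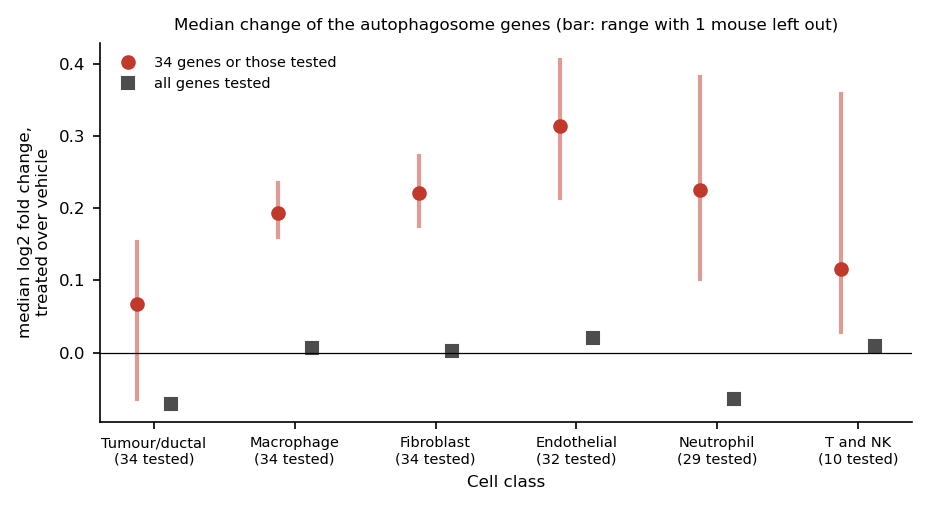
Median log2 fold change, treated over vehicle, of the autophagosome genes tested in each class (circles) and of all genes tested (squares); the bar gives the range when 1 mouse at a time is left out. The circle is at 0.31 in endothelial cells and 0.07 in tumour cells, and only in tumour cells does the bar cross 0.

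In some classes the summed counts of other cell types' markers also differed between the groups. Such sums do not tell RNA from other cells apart from expression of a listed gene by the class itself. In endothelial cells the 10 tumour and ductal markers, all 10 detected in both groups, summed to 177 to 464 CPM (UMIs of the gene or list relative to all UMIs of the class, scaled to 1e6) in vehicle mice and 51.4 to 67.5 CPM in treated mice. In fibroblasts the 10 neutrophil markers, all detected in both groups, summed to 288 to 2672 CPM in vehicle mice and 74.3 to 156 CPM in treated mice, and 7 mesothelial markers to 80.9 to 90.8 CPM and 137 to 278 CPM (5 of 7 detected in vehicle, 7 of 7 in treated mice). Also in fibroblasts, 7 plasma cell markers (all detected) were at 436 to 1037 CPM in vehicle and 253 to 348 CPM in treated mice. The 9 dendritic cell markers (8 detected in each group) were at 133 to 192 and 93.8 to 107 CPM. The 7 Schwann and glial markers were at 273.5 to 323.1 and 323.2 to 646 CPM (4 detected in vehicle, 6 in treated mice). In endothelial cells, 8 mast cell and basophil markers were at 88.6 to 103 CPM in vehicle and 145 to 171 CPM in treated mice. Of these, 4 were detected in vehicle and 6 in treated mice. The 7 mesothelial markers (3 detected in each group) were at 6.0 to 58.3 and 1.15 to 2.27 CPM. In macrophages the tumour and ductal markers summed to 137 to 645 CPM in vehicle and 58.9 to 84.05 CPM in treated mice. Their part in the values below was not tested.

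The initiation complex held the genes with the lowest adjusted p-values. Ulk1 and Ulk2 encode the kinases that start autophagosome formation, and Rb1cc1 (FIP200), Atg13 and Atg101 are their scaffold partners. Levels below are CPM after TMM scaling, which corrects class totals for composition. Ulk1 (chr5:110784488-110810097, minus strand, mm10) in endothelial cells was at 13.9, 27.6 and 14.9 CPM in vehicle 1, 2 and 3 and at 46.7, 48.4 and 33.7 CPM in treated 1, 2 and 3. All treated mice lay above all vehicle mice, and the means were 18.8 ± 7.63 and 43 ± 8.06 CPM (SD, n = 3 each). The log2 fold change was 1.03 ± 0.29 (SE), with an adjusted p of 0.0879 by edgeR's quasi-likelihood test. Ulk2 (chr11:61775649-61855073, minus strand) in endothelial cells was at 13.9, 36.4 and 36.1 CPM in vehicle mice and 63.8, 60.1 and 53.2 CPM in treated mice, with no overlap. Its log2 fold change was 0.79 ± 0.23 (SE, edgeR adjusted p 0.0994). Vehicle 1 endothelial cells were also the shallowest, with a median of 2359 UMIs per cell against 5185 to 8928 in the other mice. The vehicle 1 values of both genes rest on 2 UMIs each, while the other 5 mice had 30 to 120 UMIs per gene. Without vehicle 1 the fold change of Ulk2 was 0.70 ± 0.18 with an edgeR adjusted p of 0.0433, past the threshold, in a fit that called 7.49% of all genes, and that of Ulk1 was 0.99 ± 0.28 (0.0618). Without vehicle 2 Ulk1 was at 1.53, with an edgeR adjusted p of 0.0404, and without vehicle 3 at 0.72 (0.341).

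The direction of Ulk1 and Ulk2 was the same in every class where they were tested. Both had fold changes above 0 in 5 of 5 classes, from 0.33 in tumour cells to 1.03 in endothelial cells for Ulk1 and from 0.18 in tumour cells to 0.84 in neutrophils for Ulk2. Treated mice lay entirely above vehicle mice for Ulk1 in 4 classes and for Ulk2 in 2. In single classes of these 5, that held for 5.12% to 14% of all genes, and the reverse for 5.44% to 13%. All classes come from the same 6 mice, so counts of classes, here and below, are not independent repeats. Other genes were as one-sided: Rb1cc1 was above 0 in 6 of 6 classes, and Pik3r4, Wipi1 and Stx17 in 5 of 5. In fibroblasts Ulk1 was at 0.58 ± 0.21 (edgeR adjusted p 0.283) and Ulk2 at 0.50 ± 0.17 (0.268). The difference in response between endothelial and tumour cells, tested as a class by treatment term, was 0.65 ± 0.41 for Ulk1 (edgeR adjusted p 0.667) and 0.59 ± 0.49 for Ulk2 (0.749).

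Rb1cc1 (chr1:6206197-6276648, plus strand), the initiation gene with the highest level in tumour cells, was at 34.6, 56.2 and 42.8 CPM in tumour cells of vehicle mice and 51.2, 55.9 and 67.9 CPM in treated mice. The groups overlapped, and the log2 fold change was 0.39 ± 0.26 (SE, edgeR adjusted p 0.557). Rb1cc1 was lowest in vehicle 1 among vehicle mice in all 6 classes, as were Uvrag and Atg14. In macrophages Rb1cc1 was at 19.4 CPM in vehicle 1 and 54.1 and 55.5 CPM in vehicle 2 and 3. In neutrophils it was at 35.5 CPM in vehicle 1 and 136 and 195 CPM in vehicle 2 and 3. Uvrag was at 28.1 CPM in vehicle 1 and 56.3 and 65.6 CPM in vehicle 2 and 3 in macrophages. Without vehicle 1 the fold change of Rb1cc1 was 0.23 in tumour cells, and it moved from 0.48 to 0.16 in macrophages and from 0.33 to -0.11 in neutrophils. Of the other initiation genes, Atg13 ranged from -0.24 to 0.66 across classes and Atg101 from -0.42 to 0.20.

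**Figure D3:**
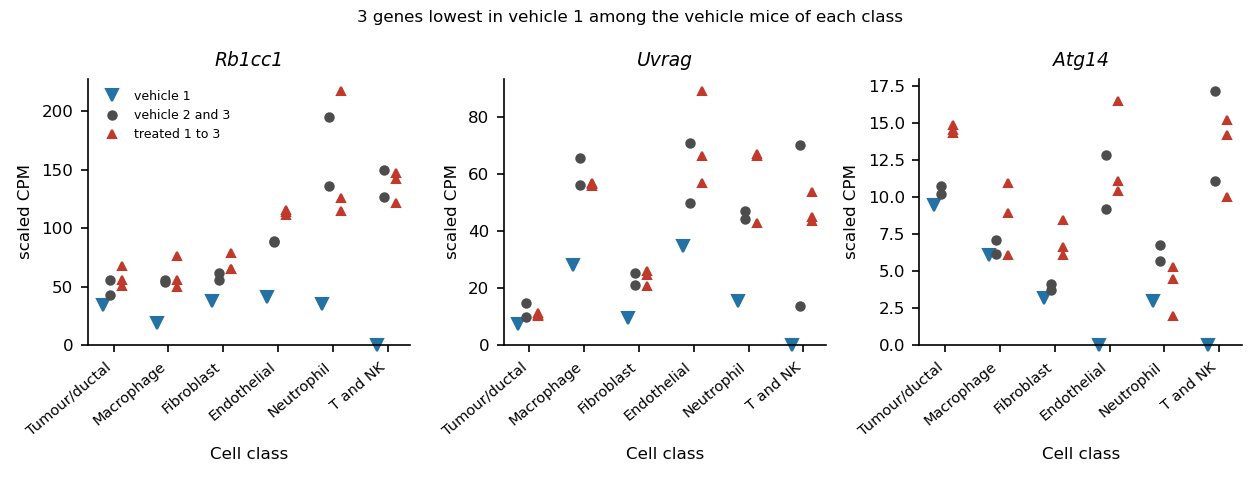
Scaled CPM of Rb1cc1, Uvrag and Atg14 (panels) in each cell class (horizontal axis), 1 symbol per mouse. Vehicle 1 (blue triangles pointing down) lies below vehicle 2 and 3 (grey circles) in all 6 classes for each gene, with 19.4 against 54.1 and 55.5 CPM for Rb1cc1 in macrophages.

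In the lipid kinase complex Becn1 lay below 0 and several partners above, none past the threshold. Becn1 (beclin 1), the regulatory core of the complex, was the gene with the smallest unadjusted p in tumour cells. Becn1 (chr11:101285952-101302286, minus strand) was at 56, 43.3 and 48.1 CPM in tumour cells of vehicle mice and 29.2, 28.2 and 33.5 CPM in treated mice. Every treated mouse lay below every vehicle mouse, with means of 49.1 ± 6.44 and 30.3 ± 2.80 CPM (SD, n = 3 each). The log2 fold change was -0.70 ± 0.21 (SE), a 1.62-fold lower level, and the adjusted p was 0.393 in edgeR and 0.113 in DESeq2. With class totals alone as scaling it was -0.40, and it was below 0 under every alternative run. Becn1 lay below 0 in 5 of 6 classes, with the groups not overlapping in 3 (tumour cells, macrophages and fibroblasts), and was at 0.10 in neutrophils. Its difference in response from tumour cells was 0.48 ± 0.25 in macrophages (edgeR adjusted p 0.496) and 0.47 ± 0.25 in fibroblasts (0.668).

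Other subunits of the lipid kinase complex lay on the opposite side. Pik3r4 (VPS15), the scaffold of the kinase, was above 0 in 5 of 5 classes tested, from 0.23 to 0.84, and the groups did not overlap in 4. Atg14, which directs the complex to autophagosome formation, was above 0 in 4 of 4 classes tested, from 0.30 to 0.90. In neutrophils, where it was not tested, Atg14 was at 2.96, 6.74 and 5.70 CPM in vehicle mice and 5.30, 1.97 and 4.51 CPM in treated mice. In endothelial cells vehicle 1 had no UMI of Atg14, and without vehicle 1 the fold change was 0.21. In fibroblasts Atg14 was at 3.21, 3.74 and 4.17 CPM in vehicle mice and 6.64, 6.12 and 8.44 CPM in treated mice, with a log2 fold change of 0.90 ± 0.28 (SE, edgeR adjusted p 0.235). Vehicle 1 had 3 UMIs of Atg14 there. Pik3c3, the kinase itself, was above 0 in 4 of 5 classes tested, up to 0.84 in neutrophils, and at -0.07 in tumour cells. Uvrag, which takes the place of Atg14 in endosomal complexes, ranged from -0.01 to 0.71, Rubcn, an inhibitor of the complex, from -0.32 to 0.32 and Ambra1, which links the complex to the ULK kinases, from -0.20 to 0.64, and the groups overlapped in every class for Uvrag and Ambra1. Without vehicle 1, Uvrag was at -0.22 in tumour cells, -0.10 in macrophages (0.16 with it), 0.03 in fibroblasts (0.26) and 0.32 in neutrophils (0.71).

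Genes of membrane supply and phosphoinositide effectors gave 1 unadjusted p under 0.01, for Wdr45 in fibroblasts. Atg9a is a scramblase on membrane vesicles, Atg2a and Atg2b transfer lipids, and Wipi1, Wipi2 and Wdr45 (WIPI4) bind the phosphoinositide made by Pik3c3. Wdr45 (chrX:7714333-7728206, plus strand) in fibroblasts was at 12.9, 13 and 11.5 CPM in vehicle mice and 18.5, 19.5 and 22.9 CPM in treated mice, with no overlap. The means were 12.5 ± 0.842 and 20.3 ± 2.31 CPM (SD, n = 3 each), and the log2 fold change was 0.72 ± 0.18 (SE, edgeR adjusted p 0.205). Wdr45 is X-linked, and vehicle 2 alone had RNA of the Y-linked gene Ddx3y (27.9 CPM over all its cells) and 0.0996 CPM of Xist, against 872 to 1939 CPM of Xist in the other 5 mice. Vehicle 2 had about the same Wdr45 level as the other vehicle mice, and the fold change without it was 0.77. Wdr45 was also above 0 in tumour cells (0.23) and neutrophils (0.13). It was at -0.15 in macrophages and 0.00 in endothelial cells, so its direction was not shared by all 5 classes tested.

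Wipi2 (chr5:142627698-142670588, plus strand), an effector that recruits the conjugation enzymes, was at 55.6, 62.3 and 122 CPM in tumour cells of vehicle mice and 46.5, 49 and 53.8 CPM in treated mice. Treated mice lay below vehicle mice, but vehicle 3 alone set most of the distance. The log2 fold change was -0.69 ± 0.34 (SE, edgeR adjusted p 0.452), and without vehicle 3 it was -0.25. Its difference in response between endothelial and tumour cells was 0.83 ± 0.35 (edgeR adjusted p 0.553). In macrophages Atg9a was above 0 at 0.50 ± 0.20 (edgeR adjusted p 0.458), with the groups not overlapping. Atg2a ranged from -0.23 to 0.38, Atg2b from -0.52 to 0.39 and Wipi1 from 0.04 to 0.26 across classes. Without vehicle 1, Wipi1 was at -0.0051 in tumour cells and 0.48 in neutrophils.

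**Figure D4:**
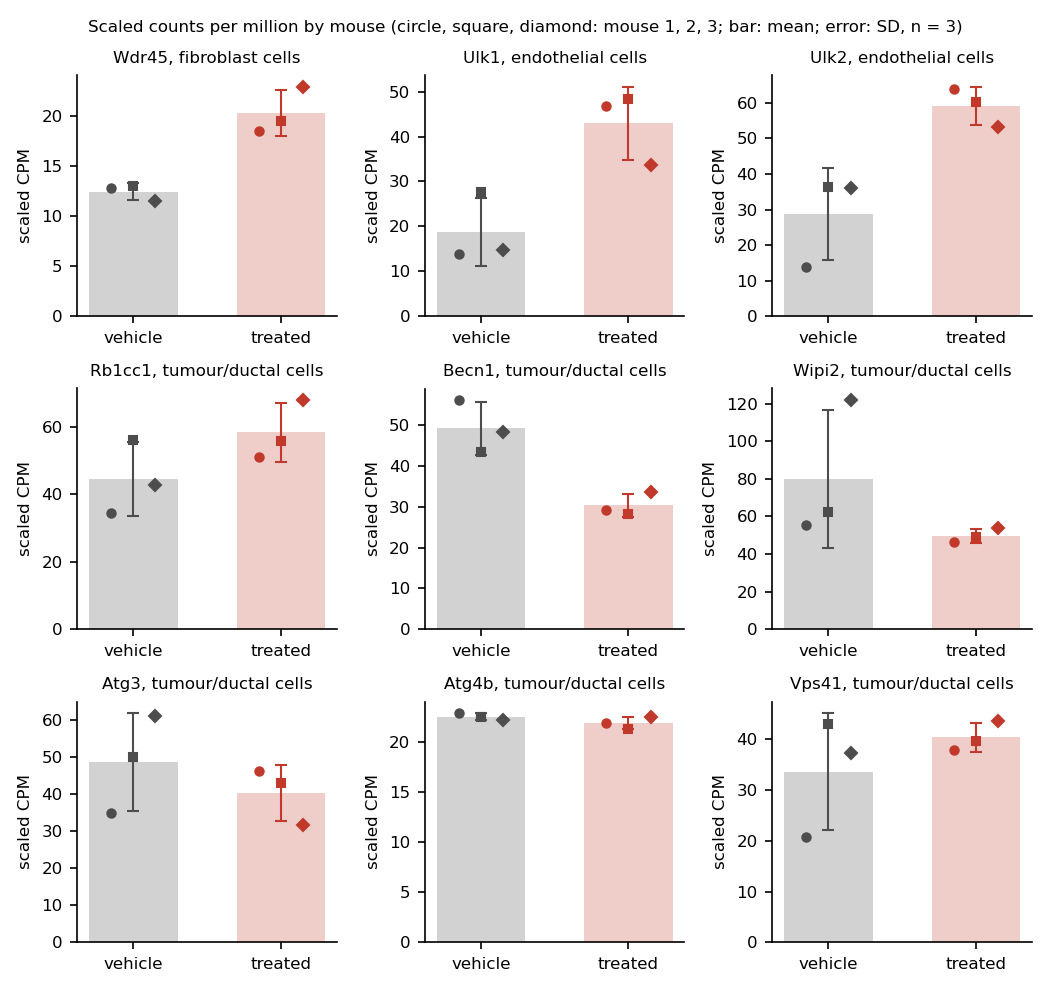
Scaled CPM of 9 genes in the class named above each panel, for 3 vehicle mice (grey) and 3 treated mice (red); bars are means, error bars are SD and symbols are single mice. Treated mice lie above vehicle mice for Wdr45, Ulk1 and Ulk2 and below them for Becn1 and Wipi2, and the groups overlap for Rb1cc1, Atg3, Atg4b and Vps41.

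The conjugation enzymes were split. Atg7 activates and Atg3 and Atg10 transfer the ubiquitin-like proteins, while Atg12, Atg5 and Atg16l1 form the complex that places LC3 on the membrane. Atg3 (chr16:45158785-45188538, plus strand) in tumour cells was at 34.9, 50.1 and 61.1 CPM in vehicle mice and 46.2, 43.1 and 31.7 CPM in treated mice. The groups overlapped, and the log2 fold change was -0.27 ± 0.29 (SE, edgeR adjusted p 0.706), or 0.04 with class totals alone as scaling. Atg3 was below 0 in 4 of 6 classes, with the groups not overlapping in macrophages and endothelial cells, and Atg5 in 3 of 6. Atg10 was above 0 in 4 of 4 classes tested, from 0.35 in macrophages to 0.93 in endothelial cells, where vehicle 1 had no UMI of it. It was not tested within neutrophils or T and NK lymphocytes. Its difference in response from tumour cells, where it was at 0.59, was -0.90 ± 0.74 in neutrophils (edgeR adjusted p 0.917). In T and NK lymphocytes this difference was 0.57 ± 0.78. Without vehicle 1, Atg10 in macrophages was at 0.16. Across classes Atg7 ranged from -0.14 to 0.30, Atg12 from -0.17 to 0.49 and Atg16l1 from -0.30 to 0.38.

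The 4 proteases, which trim LC3 proteins before conjugation and release them from membranes, did not share a direction. Atg4b (chr1:93751500-93790610, plus strand) varied least of the genes given by mouse: it was at 22.9, 22.5 and 22.2 CPM in tumour cells of vehicle mice and 21.9, 21.3 and 22.5 CPM in treated mice. Its log2 fold change was -0.04 ± 0.20 (SE, edgeR adjusted p 0.943), or 0.25 with class totals alone as scaling. Atg4c was above 0 in 3 of 3 classes tested. In macrophages Atg4c was at 3.57, 3.44 and 4.79 CPM in vehicle mice and 7.89, 6.01 and 10.0 CPM in treated mice, a log2 fold change of 1.01 ± 0.31 (SE, edgeR adjusted p 0.307), with 7 UMIs in vehicle 1. Atg4d was below 0 in 5 of 5 classes tested, from -0.66 to -0.03, and the groups did not overlap in tumour cells and fibroblasts. Without vehicle 1, Atg4d in macrophages turned from -0.03 to 0.29. In fibroblasts Atg4d was at -0.65 ± 0.22 (SE, edgeR adjusted p 0.265). Atg4a ranged from -0.26 to 0.34.

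Tethering and fusion genes lay mostly above 0 with all 6 mice in the fit. Vps11, Vps18, Vps39 and Vps41 are subunits of the HOPS complex, which tethers autophagosomes to lysosomes, Stx17 is the autophagosomal SNARE, and Epg5 is a tether. Vps41 (chr13:18717286-18866811, plus strand) in tumour cells was at 20.7, 42.9 and 37.2 CPM in vehicle mice and 37.8, 39.7 and 43.5 CPM in treated mice. The groups overlapped, the log2 fold change was 0.26 ± 0.31 (SE, edgeR adjusted p 0.734), and without vehicle 1 it was -0.00035. In fibroblasts Vps41 was at 31.1, 36.6 and 35.9 CPM in vehicle mice and 46.2, 51.3 and 47.7 CPM in treated mice, with no overlap and a log2 fold change of 0.47 ± 0.15 (SE, edgeR adjusted p 0.242). Stx17 was above 0 in 5 of 5 classes tested, from 0.33 to 0.50. Without vehicle 1, Stx17 was at 0.12 in tumour cells, 0.14 in macrophages and 0.64 in neutrophils. All 6 genes of the role were above 0 in fibroblasts, with a median of 0.37, and 4 of 6 in tumour cells, with a median of 0.29. Without vehicle 1 the 6 tumour cell values were 0.40 (Vps11), 0.40 (Vps18), 0.12 (Stx17), -0.00035 (Vps41), -0.0074 (Vps39) and -0.69 (Epg5). Epg5 ranged from -0.62 in tumour cells to 1.00 in neutrophils. Its difference between macrophages and tumour cells was 1.06 ± 0.42 (edgeR adjusted p 0.384).

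Differences in response between tumour cells and the other classes were tested for all genes. In each of the 5 pairs of classes, 0 of 34 genes passed an adjusted p of 0.05 in edgeR (background 0% against macrophages, 0.00652% against fibroblasts, 0.00717% against endothelial cells, 0% against neutrophils and 0.487% against T and NK lymphocytes). At an unadjusted p under 0.05 there were 1, 0, 1, 0 and 1 genes in those pairs, against 11.8%, 7.87%, 8.75%, 6.49% and 9.19% of all genes. The count filter of this test can be passed on tumour cell counts alone. Within their own class, only 32 of the 34 genes could be tested in endothelial cells, 29 in neutrophils and 10 in T and NK lymphocytes. For the rest, this test has too few counts in the second class to decide. The 1 gene against T and NK lymphocytes, Wipi1 (-2.06), was not among those 10. This term was not run in DESeq2.

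Promoters of 4 of these genes are shown. Ulk1, Ulk2 and Wdr45 had the smallest p-values, and Atg14 was above 0 in the 4 classes where it was tested and holds the motif searched. The motif was CACGTG, the palindromic core of sites bound by the TFEB family, transcription factors known to control autophagy and lysosome genes. Both strands read alike. Sequences are from RefSeq on GRCm38.p6, 250 bases before to 50 bases after the transcription start given in that table, 5′ to 3′ on the strand of the gene, in lower case with the motif in capitals. RefSeq promoters were at hand for 26 of the 34 genes, and 5 of those 26 held the motif (Atg14, Rubcn, Atg3, Atg5 and Atg7), or 19.2%, against 8.09% of 27025 genes with a promoter in the same table. Ulk1 is at chr5:110810032-110810331 (minus strand), Ulk2 at chr11:61855043-61855342 (minus), Wdr45 at chrX:7722677-7722976 (plus) and Atg14 at chr14:47568385-47568684 (minus). The RefSeq and GENCODE starts do not coincide for all 4. The RefSeq start lies 8594 bases inside the GENCODE gene for Wdr45 and 2215 bases inside it for Atg14. That of Ulk1 lies 16 bases inside its gene, and that of Ulk2 just outside it. The GENCODE position is the outer end of the gene, so these distances do not tell which start is the main one. These 4 windows have a GC content of 68%, 74.7%, 48% and 57.7%.
Ulk1: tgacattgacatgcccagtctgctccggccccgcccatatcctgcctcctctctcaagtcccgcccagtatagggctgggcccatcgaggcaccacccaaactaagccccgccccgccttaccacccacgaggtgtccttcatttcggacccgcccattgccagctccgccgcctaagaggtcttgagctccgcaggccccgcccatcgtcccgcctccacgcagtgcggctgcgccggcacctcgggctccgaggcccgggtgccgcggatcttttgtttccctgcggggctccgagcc
Ulk2: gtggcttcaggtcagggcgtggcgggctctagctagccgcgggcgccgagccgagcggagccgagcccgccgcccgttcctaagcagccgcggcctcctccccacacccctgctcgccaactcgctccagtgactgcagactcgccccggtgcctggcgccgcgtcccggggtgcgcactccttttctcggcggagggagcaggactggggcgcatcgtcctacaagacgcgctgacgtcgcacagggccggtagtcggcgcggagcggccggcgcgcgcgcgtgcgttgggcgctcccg
Wdr45: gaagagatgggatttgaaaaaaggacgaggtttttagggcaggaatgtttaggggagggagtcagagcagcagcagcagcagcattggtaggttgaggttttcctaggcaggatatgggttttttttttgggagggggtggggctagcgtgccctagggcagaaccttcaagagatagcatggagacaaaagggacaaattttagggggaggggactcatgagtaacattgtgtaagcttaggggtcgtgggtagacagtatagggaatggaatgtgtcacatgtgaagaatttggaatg
Atg14: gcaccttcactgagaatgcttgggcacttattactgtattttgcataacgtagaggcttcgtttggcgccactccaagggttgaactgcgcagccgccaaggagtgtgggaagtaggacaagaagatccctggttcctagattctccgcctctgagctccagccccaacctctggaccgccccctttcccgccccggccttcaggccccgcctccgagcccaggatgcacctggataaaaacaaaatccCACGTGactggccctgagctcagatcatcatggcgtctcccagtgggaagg
The first 3 hold no CACGTG in this window, and Atg14 holds it once, across the RefSeq start. The 5 genes with the motif had tumour cell fold changes of 0.52 (Atg14), -0.32 (Rubcn), -0.27 (Atg3), -0.26 (Atg5) and 0.09 (Atg7), on both sides of 0.

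Summed over all kept cells of a mouse, which moves with the make-up of the tumour as well as with levels within classes, 0 of 34 genes passed an adjusted p of 0.05 in edgeR (background 0% of 17485 genes) and 0 in DESeq2 (2.57%). At an unadjusted p under 0.05 there were 2, against 10.9% of all genes: Becn1 at -0.67 ± 0.23 (SE, edgeR adjusted p 0.414) and Atg4c at 1.00 ± 0.40 (0.446). The median of the 34 fold changes was 0.04, beside -0.02 for all genes, with 18 above and 16 below 0. The groups did not overlap for 5 genes above (background 9.87%) and 3 below (9.25%), together 23.5% against 19.1%, and 48.6% of all genes lay above 0.

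The level of these genes also varied between cell classes. Levels here are CPM of the class total without further scaling, mean ± SD over the 6 mice (5 for B lymphocytes), and since classes were defined by expression they are given without a test. The highest class exceeded the lowest by a median of 2.75-fold over the 34 genes. Endothelial cells, neutrophils and B lymphocytes each had the highest mean for 7 genes, macrophages for 6, tumour cells for 3, and fibroblasts and T and NK lymphocytes for 2 each. For 2 genes every mouse in the highest class lay above every mouse in the next. Atg3 was at 263 ± 71.9 CPM in neutrophils, with macrophages next at 84.9 ± 12.6 CPM and fibroblasts at 59.1 ± 9.08 CPM, and tumour cells at 44 ± 7.34 CPM, which endothelial cells and T and NK lymphocytes overlapped. Wipi1 was at 116 ± 18.5 CPM in fibroblasts, then 65 ± 22.2 CPM in endothelial and 43.4 ± 9.40 CPM in tumour cells, which overlap, and 11.3 ± 3.82 CPM in macrophages.

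**Figure D5:**
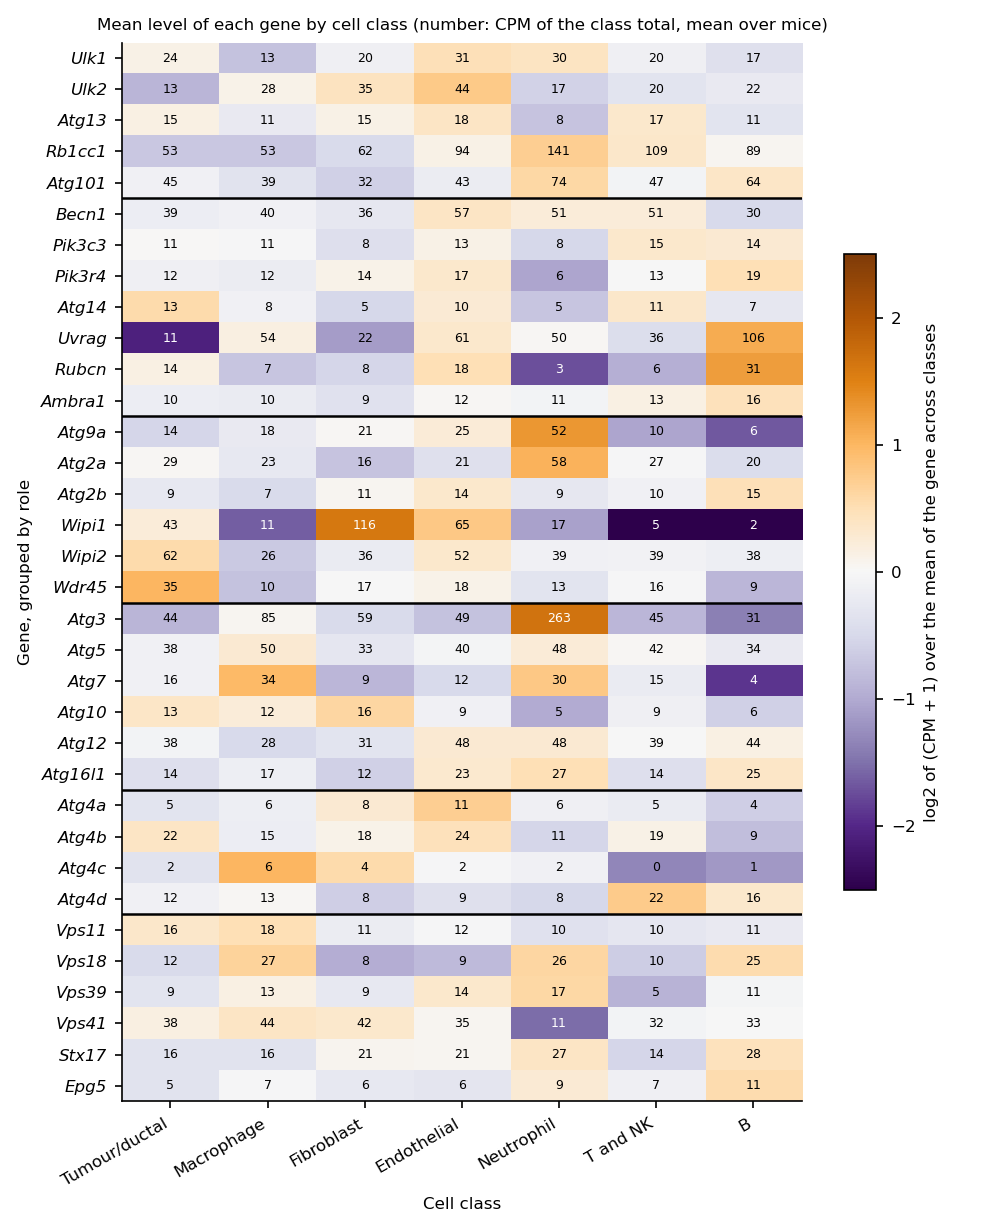
Mean level of each gene (rows, grouped by role) in 7 cell classes (columns); numbers are CPM of the class total and colours give the log2 ratio to the gene's mean across classes after adding 1. Atg3 in neutrophils (263), Wipi1 in fibroblasts (116) and Uvrag in tumour cells (11) stand out within their rows.

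Tumour cells had the lowest mean Uvrag and the highest mean Wdr45 of the 7 classes. Uvrag was at 10.7 ± 1.96 CPM in tumour cells, the lowest class mean, and at 21.6 ± 7.15 in fibroblasts, 54.1 ± 15.9 in macrophages and 106 ± 24.6 CPM in B lymphocytes. The 6 tumour cell values ran from 7.24 to 12.8 CPM and overlapped with the lowest mouse in fibroblasts (8.27 CPM) and in neutrophils (10.7 CPM), and 1 mouse had no UMI in T and NK lymphocytes. Wdr45 was at 34.7 ± 9.47 CPM in tumour cells and 18.2 ± 3.96 CPM in endothelial cells, the next class, and single mice overlapped. Neutrophils had the lowest Vps41, 11.0 ± 5.32 CPM against 32.0 ± 16.1 to 44.1 ± 13.3 CPM in the other classes, and high Atg9a and Atg2a, at 52.3 ± 14.1 and 58.3 ± 20.9 CPM. Atg7 was at 34 ± 5.14 CPM in macrophages and 30.2 ± 5.55 CPM in neutrophils, which do not differ beyond their spread, and at 8.85 ± 1.28 to 15.6 ± 3.64 CPM in fibroblasts, endothelial cells, T and NK lymphocytes and tumour cells.

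Genes of the same pathway outside the 34 were read from 7 lists of 89 genes. For the 5 lists of autophagy genes and their regulators, 0 genes passed an adjusted p of 0.05 in edgeR in any class. At an unadjusted p under 0.05, edgeR gave 6 of 64 tested in tumour cells, 4 of 63 in macrophages, 5 of 62 in fibroblasts, 6 of 59 in endothelial cells, 1 of 56 in neutrophils and 1 of 33 in T and NK lymphocytes. In the same order, 12.1%, 10.3%, 15.8%, 20.2%, 4.83% and 3.98% of all genes reached that level. DESeq2 called 2, 1, 2, 0, 0 and 0 of the list genes. Of all genes it called 2.49%, 2.28%, 2.47%, 1.92%, 0.0256% and 0.239% in those classes. Its calls were Sesn3, a stress-induced inhibitor of mTORC1 signalling, at 1.48 in tumour cells and 0.81 in fibroblasts (edgeR adjusted p 0.350 and 0.181), the SNARE Ykt6 at -0.92 in tumour cells (0.393), the ferritin receptor Ncoa4 at 1.12 in macrophages (0.155) and the receptor Calcoco1 at 1.00 in fibroblasts (0.181). The LC3 family and its receptors, the cargo side of the autophagosome, had medians of 0.02 in tumour cells (5 of 10 above 0), 0.25 in macrophages (8 of 10), 0.08 in fibroblasts (5 of 10) and 0.14 in endothelial cells (6 of 10). It was at 0.24 in neutrophils (7 of 10) and -0.22 in T and NK lymphocytes (3 of 8). The TFEB family had medians of 0.49 in tumour cells (2 of 3 above 0), 0.26 in macrophages (3 of 3), -0.06 in fibroblasts (1 of 3), 0.49 in endothelial cells (2 of 2) and 0.55 in neutrophils (3 of 3), and its 1 gene tested in T and NK lymphocytes was at -0.25. Upstream kinases and nutrient sensors were at -0.11 in tumour cells, -0.04 in macrophages, -0.06 in fibroblasts and 0.08 in endothelial cells.

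The remaining lists, of MEK and ERK output and of dividing cells, held the pathway genes that passed the edgeR test, all in endothelial cells. DESeq2 called the same counts there (5 and 1), and also 3 dividing-cell genes in macrophages (Top2a, Ccnb1 and Ccnb2), 1 in fibroblasts (Ccnb1), Egr1 in macrophages and Phlda1 in fibroblasts, all lower in treated mice. Of all genes, DESeq2 called 1.92% in endothelial cells, 2.28% in macrophages and 2.47% in fibroblasts. In edgeR 5 of 9 dividing-cell genes tested in endothelial cells were lower in treated mice and 0 higher, where 1.1% of all genes were lower. The 10 dividing-cell genes summed to 190, 903 and 699 CPM in vehicle 1, 2 and 3 there. In treated 1, 2 and 3 they summed to 178, 117 and 202 CPM, so vehicle 1 lay within the treated range. Mcm5, a subunit of the replicative helicase, fell by 2.86 on the log2 scale (SE 0.28, edgeR adjusted p 0.00275), and Ccnb2, a mitotic cyclin, by 3.65 (0.0105). Of 13 genes of MEK and ERK output tested, 1 was lower: Etv4, a transcription factor induced by ERK signalling, was at 13.9, 17.2 and 41.6 CPM in vehicle mice and 4.95, 1.84 and 5.32 CPM in treated mice. It fell by 2.71 on the log2 scale (SE 0.47, edgeR adjusted p 0.0230). These calls rest on few mice: without treated 1 or without treated 2 only Mcm5 passed among the dividing-cell genes and Etv4 did not, without vehicle 3 Etv4 did not, and without vehicle 1 all 10 dividing-cell genes tested did. Beside them, the tumour and ductal markers in endothelial cells were also lower in treated mice, as given above, and their part was not tested. In tumour cells the 10 dividing-cell genes had a median of -1.11, all below 0, and the 15 genes of MEK and ERK output a median of -0.21, with 0 called in edgeR.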

How the data were processed

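Droplet single-cell libraries of 6 tumours were aligned and counted by the authors with Cell Ranger 5.0.1 on mm10, per the submitters' processing notes, and the deposited values are raw UMI counts per gene and barcode. A barcode passed (39928 of 44819) when it held 500 UMIs and 250 genes or more and no more than 20% of its UMIs were mitochondrial. As doublets, the 2926 barcodes with the highest Scrublet scores within their library (scanpy 1.11.5) were removed. Their number was set in advance, at 0.8% per 1000 barcodes of a library, and is not a measured doublet count. Cells were clustered without the 34 genes and the 89 pathway genes (123 in all), using 2000 variable genes and 30 components, and clusters were named when at least 3 markers reached 50 CPM and 4-fold over the other clusters' lower quartile. Raw counts were summed per mouse and class and tested with edgeR 4.0.16 (TMM, quasi-likelihood, R 4.3.3), with DESeq2 1.42.0 as an alternative. Groups come from the labels, with 1 tumour per mouse. Mice share only a number across groups.

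Members and lists were chosen with earlier results of these data known. By rule, values by mouse are given for genes past an adjusted p of 0.05 or an unadjusted p of 0.01 and for the gene of each role with the highest tumour cell level. Atg14, Atg4c, Vps41 in fibroblasts and the genes named from single classes were chosen after their values were seen. B lymphocytes were too few in vehicle 1 (8 cells) to test. The statistics were tested on simulated data. Gene positions are from GENCODE M21. The alternatives were other scalings, filters, tools, a replicate block and leaving out each mouse.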

Additional observations from a re-analysis of the deposited data

How the results depend on the processing

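No alternative called a gene of the autophagosome machinery outside endothelial cells, where 1 was called with no filter on low counts (Ulk1, 1.01, adjusted p 0.0165 in edgeR) and 0 to 1 when 1 mouse was left out. Those were Ulk2 at 0.70 without vehicle 1 and Ulk1 at 1.53 without vehicle 2. Leaving out 1 mouse at a time gave medians of -0.06 to 0.15 in tumour cells, 0.16 to 0.23 in macrophages, 0.18 to 0.27 in fibroblasts, 0.21 to 0.41 in endothelial cells, 0.10 to 0.38 in neutrophils, 0.03 to 0.36 in T and NK lymphocytes and -0.04 to 0.07 over all kept cells. With class totals alone as scaling, an alternative chosen after seeing the data, the medians were 0.36 in tumour cells, 0.36 in fibroblasts and 0.32 over all kept cells, Atg3 in tumour cells turned to 0.038 and Atg4b to 0.25, while the median of all genes moved as well. Leaving out 1 mouse gave -0.00035 (without vehicle 1) to 0.47 (without vehicle 2) for Vps41 in tumour cells. The cause was not tested.

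Counts of all genes called moved more. DESeq2 called 364 genes in tumour cells, 266 in macrophages, 308 in fibroblasts, 2 in neutrophils, 12 in T and NK lymphocytes and 450 over all kept cells, where edgeR called 0, 0, 0, 0, 6 and 0. With no filter edgeR called 1, 56 and 5 in tumour cells, macrophages and neutrophils, 86 in T and NK lymphocytes and 800 in endothelial cells (132 with the filter). Leaving out 1 mouse gave 2 to 802 in endothelial cells, 1 to 28 in T and NK lymphocytes, and at most 1 in macrophages, 9 in fibroblasts and 3 in neutrophils. In endothelial cells 78 were called with class totals alone, 2 with treated 1 and 2 summed and 64 with doublets kept, and in T and NK lymphocytes 3 with doublets kept.

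Replicate numbers name different mice in the 2 groups, and the main fit held no block. Correlations of deviations from the group mean ran from -0.149 to 0.343 for same-numbered mice and from -0.330 to 0.284 for the others. Same-numbered values were 0.074, 0.094 and 0.086 in macrophages, where all others were below 0, and -0.0088, -0.149 and 0.076 in tumour cells. With the replicate block, 0 genes of the machinery were called, the medians were 0.05, 0.22, 0.23, 0.37, 0.23 and 0.14 in tumour cells, macrophages, fibroblasts, endothelial cells, neutrophils and T and NK lymphocytes, and 0.05 over all kept cells, and 6 of all genes were called in macrophages and 10 in T and NK lymphocytes.

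Few UMIs lay behind some values: endothelial cells of vehicle 1 gave 98 UMIs of these genes with 6 genes at 0, and its T and NK lymphocytes 29 UMIs with 20 at 0.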

Other observations

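The unnamed Krt8 and Krt18 cells led by Cdkn2a, found almost only in treated 1 and treated 2, were compared with the tumour cells of the same mouse. Of the 34 genes, 13 were at a higher CPM in these cells in both mice, 16 at a lower CPM in both and 5 were split, with median log2 differences of -0.14 and -0.03. Wipi2 was at 0.44 and 0.43, Becn1 at -0.49 and -0.46, Atg5 at -0.66 and -0.47 and Epg5 at -0.52 and -0.65 in treated 1 and 2. These 4 genes were chosen after their values were seen, and cells of 2 mice give no test. Adding these cells to the tumour class, an alternative chosen after seeing the data, gave a median of 0.05 over the 34 genes.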
